A study of Mus musculus with 2 samples.

Results

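The genes described here encode the small GTPases, membrane fusion proteins and protein translocation and coat proteins of vesicle traffic. Members were chosen by gene symbol, from probe sets that name 1 gene whose symbol begins with Rab, Arf, Arl, Vamp, Stx, Snap or Sec followed by a digit (for Arf, a digit alone). This gave 121 probe sets for 90 genes, of 8251 genes named in all. Of the 90, 39 are Rab, 6 Arf, 5 Arl, 10 Stx, 4 Snap, 7 Vamp and 19 Sec genes. They were measured on Affymetrix mouse arrays in 2 samples of Lin-c-kit+Sca1+ (LSK) cells sorted from bone marrow, a fraction enriched for blood stem and multipotent progenitor cells. Both samples belong to 1 group, and the labels give no treatment, age, strain or genotype. Whether they came from separate animals or sorts is not stated, so the spread between them may be technical, and no gene can be tested. Both RNAs went through 2 rounds of amplification.

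Transport between membranes works by budding, targeting and fusion. Sec61 and its partners move new proteins into the endoplasmic reticulum (ER), and the COPII coat, built from other Sec proteins, buds vesicles from it. Arf GTPases recruit further coats, and Rab GTPases mark each compartment and direct vesicles to it. Fusion is driven by SNAREs, in which an R-SNARE such as a VAMP zips up with syntaxin (Stx) and SNAP proteins. Most of these proteins serve every cell, while some paralogues serve the regulated release of neurotransmitter at synapses.

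The signal of a gene is the quantile-normalised intensity of the probe set with the strongest mean signal among those that name it. A gene counted as above the control level when any of its probe sets exceeded, in both samples, a level set by 15 bacterial control probe sets (their 90th percentile). That level was 12.1 in sample 1 and 8.91 in sample 2. Of 48 measured genes typical of organs such as liver, pancreas, muscle and testis, 14 (29.2%) passed, so it is a permissive level. The 90th percentile over the probe sets of these organ genes, 40.05 for sample 1 and 20.75 for sample 2, served as a stricter level. Probe sets differ in affinity, so signals of different genes are not ranked against each other. Of 9 measured markers of early progenitors, among them Kit and Flt3, 9 were above the control level, against 4 of 12 lineage antigen genes (Ms4a1, Cd79a, Cd79b and Ly6g). At the stricter level 6 of the 9 passed, without Kit, Meis1 and Runx1, and 0 of the 12. Of all named genes 57% passed the control level and 27.4% the stricter one. Ly6a, which encodes Sca-1, was not analysed here.

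Vesicle traffic genes of general use were mostly above the control level in the LSK cells, and those of neurons mostly were not. Of 64 members classed as ubiquitous, 47 (73.4%) were above it in both samples, against 1 of 7 neuronal members and 4 of 9 members used mainly in other particular tissues. Another 10 members were in none of these classes, and 9 of them were above it. Over all 90 members the count was 61 (67.8%), beside 57% of all named genes. At the stricter level 26 of 90 members remained (28.9%), beside 27.4% of all named genes, which is near the background. Of the ubiquitous members 21 of 64 (32.8%) passed the stricter level. The neuronal class held few genes, and its 1 member above both levels was Rab3a. The classes came from textbook knowledge of where each gene is used, but were drawn up with earlier results of these data known.

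**Figure D1:**
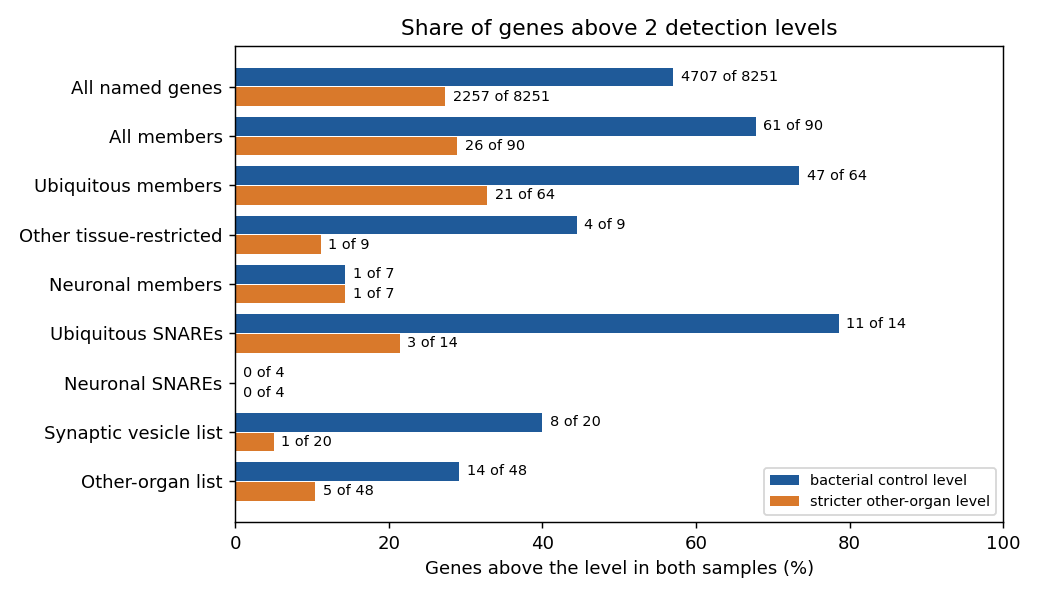
Horizontal bars give the percentage of genes above the bacterial control level (blue) and above the stricter other-organ level (orange) in both samples, with counts beside the bars. The ubiquitous members reach 47 of 64 at the bacterial level, the neuronal members 1 of 7 and the neuronal SNAREs 0 of 4.

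The count depended on how many probe sets had to pass. Of 27 members with several probe sets, 9 had all of them above the control level, 13 were split and 5 had none. Where every probe set of a gene had to pass, 38 of 64 ubiquitous and 0 of 7 neuronal members were counted, beside 44.9% of all named genes. Of the 29 members not above the control level, 11 were at or below it in both samples by their strongest probe set. Another 8 exceeded it in sample 1 alone and 10 in sample 2 alone. Neither this split nor that of the probe sets was counted over all named genes. Within single arrays, 69 of 90 members were above the level in sample 1 (64.3% of all named genes) and 71 of 90 in sample 2 (71% of all named genes).

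The SNAREs split by class at the control level. Of 14 ubiquitous SNAREs with Stx, Snap or Vamp names, 11 were above it (78.6%), against 0 of 4 neuronal ones and 57% of all named genes. At the stricter level 3 of the 14 passed (21.4%), fewer than the 27.4% of all named genes, and 0 of the 4. Snap25, the synaptic SNAP protein, gave 1.30 in sample 1 and 4.20 in sample 2, below the control level in both. Its relative Snap23, which serves fusion at the plasma membrane of other cells, had 31.4 and 19.7, above it in both. Stx1a, the syntaxin of the synaptic plasma membrane, had 21.3 and 4.70, so it passed in sample 1 and not in sample 2. Stx4a, the plasma membrane syntaxin of many cell types, had 92.85 and 85.25, above both levels in both samples (a mean of 6.48 ± 0.09 in log2 units, SD over n = 2 samples). Vamp2 is the main R-SNARE of synaptic vesicles. It had 6.75 and 22.25, and 1.10 and 1.20 by another probe set. Vamp1, its close relative in motor neurons, had 20.85 and 3.20, and 6.35 and 2.15 by another probe set. Neither Vamp1 nor Vamp2 passed in both samples. Snap91, named like a SNAP but encoding a clathrin assembly protein of synapses, had 4.40 and 2.15, below the control level in both samples.

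Vamp8, an R-SNARE of late endosomes and of secretory granules in blood cells, was above both levels in both samples. Its signals were 514 and 664 (a mean of 9.19 ± 0.26 in log2 units, SD over n = 2 samples). Another of its probe sets had 178.5 and 163.4. Both probe sets carry an ID suffix that marks sequences which may match related transcripts. Vamp5, an R-SNARE first described in muscle and classed here as tissue-restricted, had 121 and 86.45, above both levels in both samples. Vamp5 lies beside Vamp8 on chromosome 6 in the RefSeq annotation of GRCm38.p6 (chr6:72368049-72380468 and chr6:72385221-72390667). Vamp4, a SNARE of the trans-Golgi network, had 25.8 and 22.35, close to each other, and 19.1 and 16.8 by another probe set. Vamp7, of late endosomes and lysosomes, had 21.95 and 9.60, near the control level in sample 2, and 7.5 and 10.7 by another probe set. Vamp3, of recycling endosomes, had 8.15 and 6.25, and was below the control level in both samples.

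Among the other syntaxins, Stx5a, the syntaxin of ER to Golgi transport, was higher in sample 2, with 46.85 and 147.6, or 3.15-fold. Stx2, of the plasma membrane, was higher in sample 1, with 82.35 and 18.4, at least 4.12-fold since the lower value was under the floor of 20 that was set before taking log2. Stx7 and Stx12 are endosomal syntaxins, and both passed the control level in both samples. Stx7 had 36.8 and 26.05. Stx12 had 31.4 and 16.6. Stx18, of the ER, had 14.0 and 12.0. Stx3, prominent at the apical surface of epithelia and at ribbon synapses, had 19.8 and 13.55 by 1 of 3 probe sets, while the other two were below the control level. Stx6, of the trans-Golgi network, had 3.10 and 1.95, and Stx8, of late endosomes, had 2.55 and 4.50. These 2 ubiquitous syntaxins and Vamp3 were below the control level in both samples, as Snap25 was. Snap47, a widely expressed SNAP protein, had 18.4 and 15.55.

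**Figure D2:**
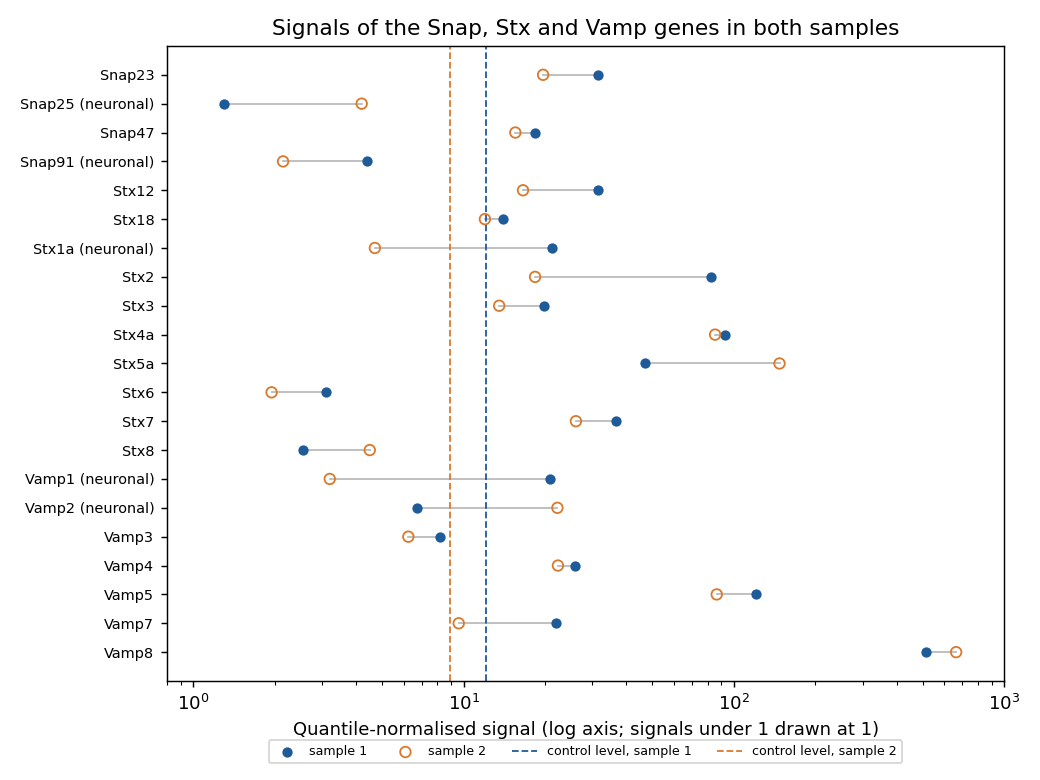
Each row is a Snap, Stx or Vamp gene, with its quantile-normalised signal on a log axis in sample 1 (filled) and sample 2 (open), and dashed lines mark each sample's control level. Vamp8 lies at 514 and 664 and Stx4a at 92.85 and 85.25, to the right of both lines, while Snap25 and Snap91 lie to the left of both.

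Promoters of 4 of these SNARE genes are shown, as 1 pair of neighbours and 1 pair of relatives. Vamp8 and Vamp5 are neighbours and were both above it, and Stx4a was above it while its neuronal relative Stx1a was not in both samples. Each sequence is the 120 bases before the annotated start in RefSeq (GRCm38.p6), with CG dinucleotides in capitals. They are Vamp8 (chr6:72390668-72390787, minus strand), Vamp5 (chr6:72380469-72380588, minus strand), Stx4a (chr7:127841688-127841807, plus strand) and Stx1a (chr5:135023362-135023481, plus strand).
Vamp8: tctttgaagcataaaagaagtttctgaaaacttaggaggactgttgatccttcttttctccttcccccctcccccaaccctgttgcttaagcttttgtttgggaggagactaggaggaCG
Vamp5: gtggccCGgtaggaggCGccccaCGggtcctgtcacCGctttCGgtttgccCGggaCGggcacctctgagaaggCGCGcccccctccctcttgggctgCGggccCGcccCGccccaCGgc
Stx4a: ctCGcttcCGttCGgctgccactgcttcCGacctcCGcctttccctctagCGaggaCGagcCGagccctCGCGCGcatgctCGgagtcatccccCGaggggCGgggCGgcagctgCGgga
Stx1a: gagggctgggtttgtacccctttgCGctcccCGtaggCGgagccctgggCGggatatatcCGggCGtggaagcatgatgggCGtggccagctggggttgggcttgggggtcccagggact
The Vamp8 stretch holds 1 CG dinucleotide, Vamp5 13, Stx4a 16 and Stx1a 7.

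A window of 300 bases around each start, 250 before it and 50 after, was available for 80 of the 90 members. A gene was called CpG-rich when a window had over 50% G and C and a ratio of observed to expected CG dinucleotides over 0.6. Of the 80 members 66 (82.5%) were CpG-rich, beside 64.5% of the 6576 measured genes with a window. Of the ubiquitous members with a window 51 of 56 (91.1%) were CpG-rich, of the neuronal ones 4 of 5 and of those restricted to other tissues 4 of 9. Of the members above the control level 48 of 55 (87.3%) were CpG-rich, and of those not above it 18 of 25 (72.0%). For all measured genes the shares were 72.5% and 53.4%, so the order was the same over all measured genes. Vamp8, whose window had 46.7% G and C and a CG ratio of 0.31, was not CpG-rich although its signals were above both levels. The GC box letters GGGCGG, searched on both strands, were in the windows of 78.8% of members, 63.0% of measured genes and 38.2% of all 27025 genes of the table. The TATA box letters TATAAA, searched likewise and sharing no letters with the GC box, were in 7.5% of members, 12.2% of measured genes and 15.7% of all genes. These are matches of letters, not binding sites.

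Of the 2 neuronal Rab genes measured, Rab3a was above the control level and Rab3b was not, so the Rabs alone show no split by class. Of 39 Rab-named genes, 27 (69.2%) were above the control level and 11 above the stricter one, beside 57% and 27.4% of all named genes. Rab3a, the GTPase of synaptic vesicles, had 155 and 20.85 by its strongest probe set, a 7.43-fold difference (a mean of 5.83 ± 2.05 in log2 units, SD over n = 2 samples). By another probe set it had 8.60 and 2.65, below the control level in both samples. The neuronal gene's pass therefore rested on 1 of 2 probe sets, which in sample 2 lay next to the stricter level. Rab3b, a Rab3 form of brain and pituitary, had 3.10 and 5.60, below the control level in both. Rab3d, the form of exocrine glands and mast cells, had 7.30 and 23.25 and passed in sample 2 alone. Values of other Rabs of particular tissues follow. Rab17 had 12.8 and 4.50 and Rab25 had 12.0 and 30.45, both being Rabs of epithelial cells. Rab33a, of brain and lymphoid cells, had 4.12 and 9.15, and Rab20, found in epithelia and macrophages, 14.25 and 11.15. Of these 4, Rab20 alone passed in both samples.

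Of 5 members grouped as Rabs of the ER and Golgi, 5 were above the control level, beside 57% of all named genes. Rab18, of the ER and lipid droplets, had 122 and 128 (a mean of 6.96 ± 0.05 in log2 units, SD over n = 2 samples), nearly the same in both samples. Rab6a, of the Golgi, had 75.4 and 68.85, and 24.9 and 40.4 by another probe set. Rab1a, which acts between ER and Golgi, was 2.48-fold higher in sample 1, with 73.35 and 29.6, while its other probe set had 1.30 and 3.95. Rab2a, which acts at the same step, had 25.45 and 25.2, while its other probe set had 4 and 0.85. Rab33b, a Golgi Rab with a part in autophagy, had 73.8 and 152.0 by its strongest probe set and 38.65 and 19.0 by another. Its probe sets thus went in opposite directions. The strongest carries the ID suffix seen for Vamp8, which marks sequences that may match related transcripts. The pass of Rab33b at the stricter level rested on that probe set.

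The Rabs of endosomes mostly had more signal in sample 2. Of 13 such genes 10 were above the control level, beside 57% of all named genes. Of the 10, 8 were higher in sample 2, beside 43.3% of all named genes above that level. Sample 2 minus sample 1, their median log2 difference was 0.91, against a median of 0 over all named genes above that level. This grouping by role was made after the values were seen, and it describes these 2 arrays. Rab11b, a Rab of recycling endosomes, had 24.6 and 105.65, 4.29-fold apart. Rab11a, its widely used relative, had 28.35 and 52.0, 1.83-fold apart, and 8.05 and 12.2 by another probe set. Rab5a and Rab5c act in early endosome fusion, and both were higher in sample 2. Rab5a had 20.1 and 41.95, or 2.09-fold. Rab5c had 61.3 and 141, or 2.30-fold. Rab7, which governs late endosomes and lysosomes, had 27.2 and 52.3, and 13.05 and 14.35 by another probe set. Rab14, of early endosomes and the Golgi, had 102 and 159 (a mean of 6.99 ± 0.45 in log2 units, SD over n = 2 samples). Of its 2 other probe sets, one had 10.15 and 33.85 and the other 13.35 and 9.05, in opposite directions. Rab31, of the trans-Golgi network and endosomes, had 21.6 and 65.95 by a probe set of the sequence-family kind and 20 and 10.85 by another. Rab4b had 37.5 and 39.3. Rab21, of early endosomes, had 52.6 and 48.6, and Rab4a, of fast recycling, had 33.6 and 19.35, so these 2 were higher in sample 1. Rab5b, with 2.80 and 20.5, Rab9, with 9.90 and 15.55, and Rab35, with 15.55 and 6.15, did not pass it in both samples. Averaged over a gene's probe sets, the median of the 10 was 0.47, and with the deposited scaling it was 0.78, with 7 of 10 higher in sample 2.

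Rabs of exocytosis other than the Rab3 forms were those of the constitutive route. Rab8a, which carries vesicles from the Golgi to the plasma membrane, had 103 and 91.4 (a mean of 6.60 ± 0.12 in log2 units, SD over n = 2 samples), above both levels. Rab8b, its relative, had 34.95 and 8.45 and passed in sample 1 alone. Rab10, of the same route, had 35.9 and 27.8, and 16.35 and 39.95 by another probe set. Rab12 had 39.95 and 43.35, and Rab28 had 16.9 and 13.8. Rab23, a Rab of hedgehog signalling and cilia, and Rab34 were not above the control level in either sample. Rab24, linked to autophagy, had 44.4 and 6.35 and passed in sample 1 alone.

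Several Rab-named genes do not encode a Rab GTPase. Rab10os and Rab26os name transcripts from the opposite strand. Rab26os had 89.3 and 106, above both levels, and Rab10os had 37.5 and 43.7. Rab5if, a Rab5-interacting factor, had 74.65 and 111. Rab3ip and Rab3il1 activate Rab8-type GTPases. Rab3ip had 24.0 and 20, and 6.95 and 14 by another probe set. Rab3il1 had 18.4 and 13.45. The Rab11 effector Rab11fip5 had 21.6 and 15.0. Each of these 6 passed the control level in both samples, as did 57% of all named genes.

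**Figure D3:**
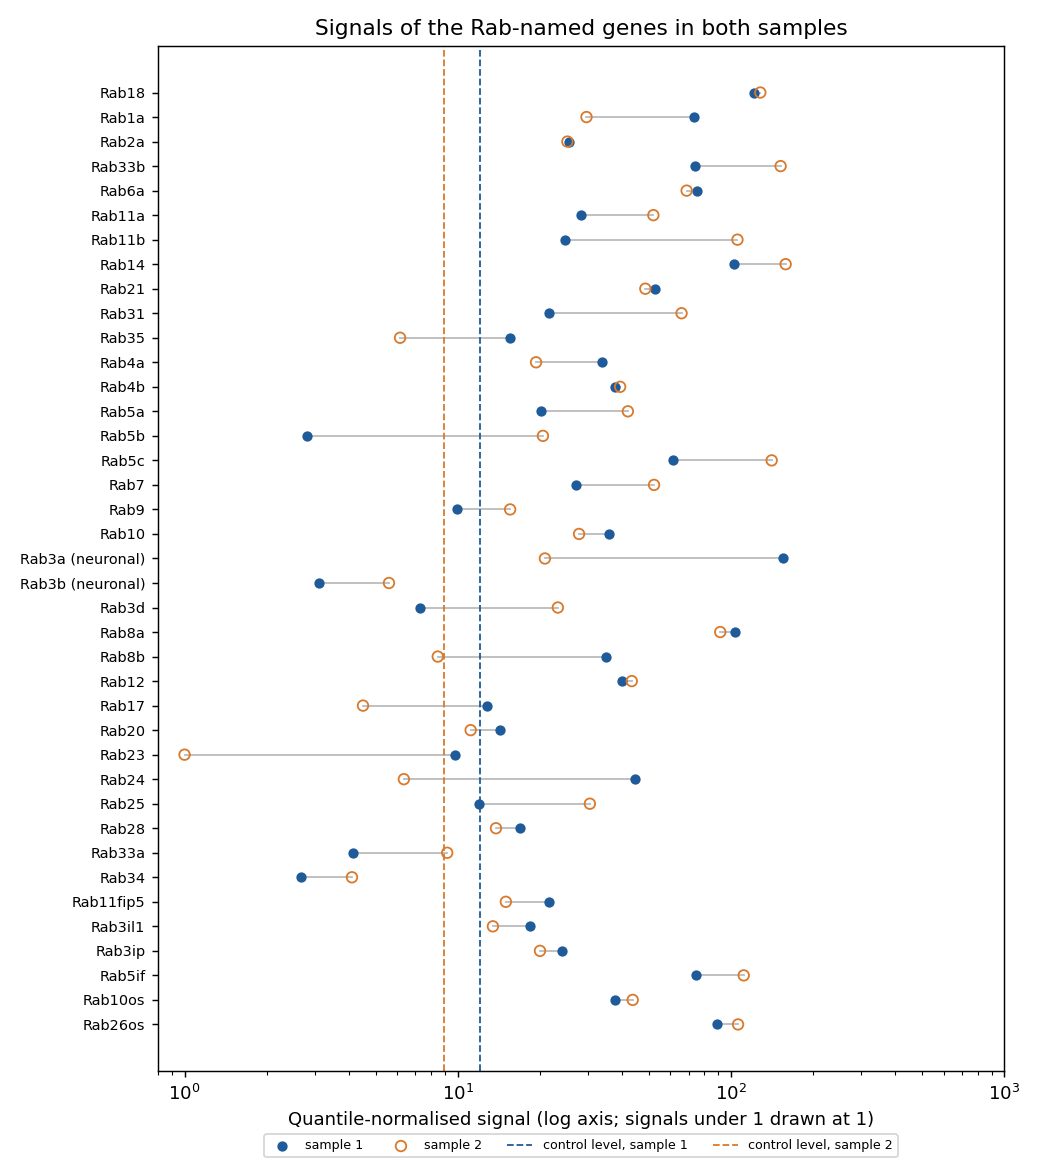
Each row is a Rab-named gene, ordered from ER and Golgi Rabs through endosomal, exocytic and other Rabs to partner and opposite strand genes, with signals on a log axis in sample 1 (filled) and sample 2 (open) and each sample's control level dashed. Rab18 and Rab2a nearly coincide, Rab11b lies at 24.6 and 105.65, and Rab3a at 155 and 20.85.

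Of the Arf GTPases, which recruit the COPI coat and clathrin adaptors, 4 of 6 were above the control level, beside 57% of all named genes. Of these 4, 3 were higher in sample 1 (46.9% of all named genes above that level), and the other had both signals under the floor. Arf1, the Golgi form that recruits COPI, had 568 and 135, a 4.21-fold difference (a mean of 8.11 ± 1.47 in log2 units, SD over n = 2 samples). Arf5 had 100 and 81.0, and Arf3, a close relative of Arf1, 50.25 and 29.3. The other probe sets of Arf3 had 33.3 and 42.7, and 2.80 and 11.15, higher in sample 2 in both cases. Arf4 had 17.45 and 19.0, above the control level but under the floor. Arf2 had 4.30 and 3.75, below the control level in both samples. Arf6, the form of the plasma membrane and endosomes, had 11.9 and 16.9, just under the control level in sample 1, and 10.85 and 4.90 by another probe set.

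Among the Arl genes, Arl1, a GTPase of the trans-Golgi network, had 45.3 and 10.25, at least 2.26-fold higher in sample 1. Arl2, a regulator of tubulin folding, had 25.55 and 26.6. Arl3, a GTPase of cilia, had 8.05 and 13.0 and passed in sample 2 alone. The other 2 Arl-named genes encode partners. Arl2bp, which binds Arl2, had 63.05 and 93.75, and Arl14ep, an effector of Arl14, had 111 and 44.65, 2.49-fold higher in sample 1. Both were above the stricter level by these probe sets, while another probe set of Arl14ep had 14.25 and 10.25.

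Of 19 Sec genes 13 (68.4%) were above the control level and 6 (31.6%) above the stricter one, beside 57% and 27.4% of all named genes. In the translocon, 4 of 5 genes were above the control level, beside the same 57%. Sec61a1, the channel subunit, had 572 and 608 (a mean of 9.20 ± 0.06 in log2 units, SD over n = 2 samples). By another probe set it had 187 and 134, so both probe sets placed it above both levels. Its paralogue Sec61a2 had 34.65 and 23.75, and the small subunit gene Sec61b 28.55 and 20.6. Sec62, which assists post-translational import, had 18.55 and 21.55 by 1 of 3 probe sets. Its partner Sec63 had 12.1 and 2.50 and passed in sample 1 alone. The signal peptidase subunit gene Sec11a had 155 and 68.35, 2.27-fold higher in sample 1, and Sec11c had 38.2 and 49.75.

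Genes of the COPII coat did not move as a set. Of 8 genes 6 were above the control level, beside 57% of all named genes. Of these 6, 3 had more signal in sample 1 and 3 in sample 2, with a median difference of -0.09 on the log2 scale. Sec13, of the outer coat, had 131 and 55.45, 2.35-fold higher in sample 1. Its outer coat partner Sec31a had 35.35 and 41.5. Sec23b, of the inner coat, had 65.45 and 23.6, 2.77-fold higher in sample 1, though its other probe set had 2.35 and 13.55. Sec24c, the cargo-binding partner in that coat, went the other way with 67.4 and 153.9, 2.28-fold higher in sample 2. Sec16a, the organiser of ER exit sites, had 92.3 and 158.35, also higher in sample 2. Sec23a had 32.6 and 24.5, and 2.8 and 1.75 by another probe set. Sec24b and Sec23ip were below the control level in both samples. The ER to Golgi R-SNARE gene Sec22b had 40.6 and 5.60, and 13.15 and 1.95 by another probe set, passing in sample 1 alone by both.

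The remaining Sec names are not of the secretory machinery in this sense. Sec14l2, a lipid transfer protein gene of liver and other tissues, had 32.5 and 15.0, and 10.35 and 12.1 by another probe set. Sec14l1 had 6.45 and 20.75, and 4.5 and 3.45 by another. Sec1, a fucosyltransferase gene, had 6.85 and 10.25. Neither Sec14l1 nor Sec1 passed in both samples.

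**Figure D4:**
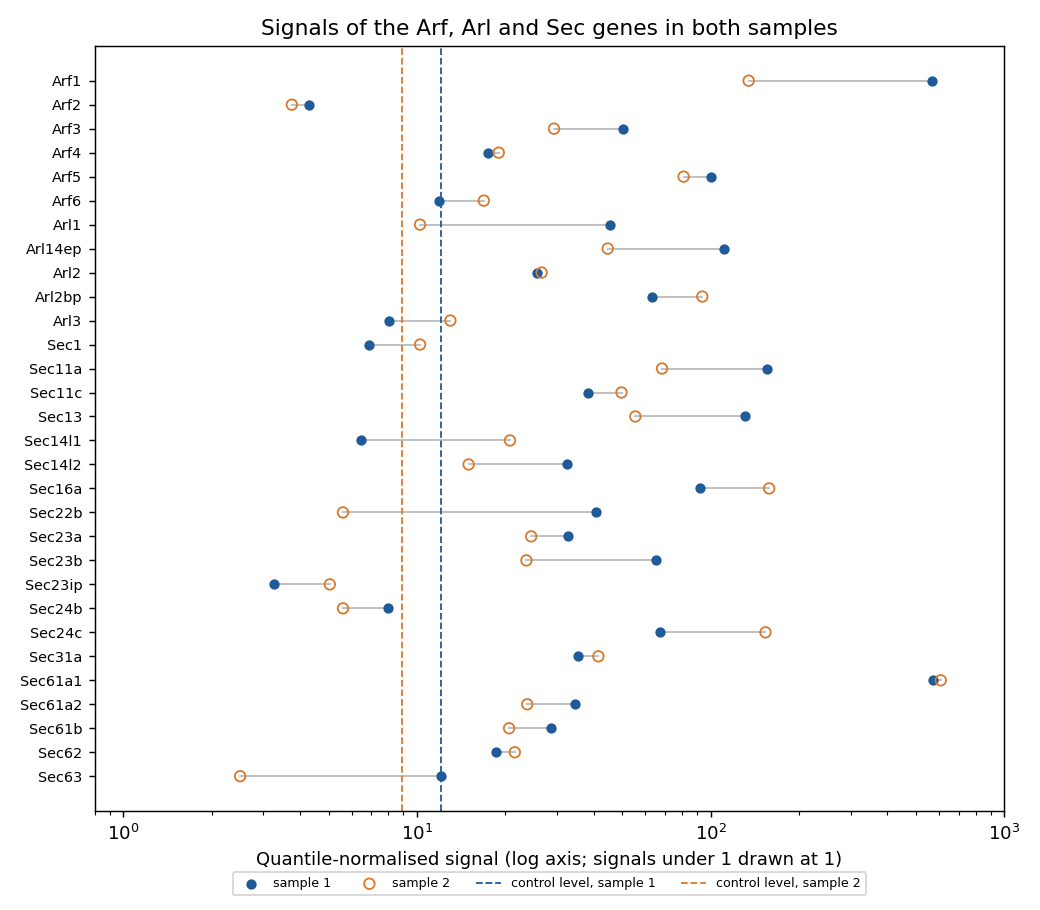
Each row is an Arf, Arl or Sec gene, with signals on a log axis in sample 1 (filled) and sample 2 (open) and each sample's control level dashed. Sec61a1 nearly coincides at 572 and 608, Arf1 spans 568 and 135, and Sec13 and Sec24c lie apart in opposite directions.

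Other genes of the pathway came from lists written down beside the members. Of 37 coat, adaptor and translocation genes 32 (86.5%) were above the control level, and 21 (56.8%) were above the stricter one, beside 57% and 27.4% of all named genes. They included Ap3b1 of the lysosomal adaptor AP-3, with 265 and 171, the COPI gene Copb2, with 296 and 121, and Ap2m1 of the endocytic adaptor AP-2, with 167 and 210. Of 17 genes of SNARE fusion and recycling and the Rab cycle 10 (58.8%) were above the control level, near the share of all named genes. Those not above it were the general genes Ykt6, Bet1, Vti1a, Stxbp3, Vps45, Rabggta and Rabep1. Those above it included Napa, which with NSF takes spent SNAREs apart, at 64.5 and 138, the Rab recycling factor gene Gdi2 at 95.7 and 65.4, and Stxbp2, a syntaxin-binding protein of blood cell granules, at 55.8 and 63.6. Of 20 synaptic vesicle genes 8 (40.0%) were above the control level and 1 above the stricter one, Syt3, at 46.6 and 36.8. Of 20 neuron and glia markers 9 were above the control level, and 1, the tubulin gene Tubb3 at 55.2 and 62.8, was above the stricter one. Of 11 mast cell and platelet markers 4 were above the control level and 1 above the stricter one. The part of RNA from such cells in the members' signals was not tested.

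The difference between the samples was described gene by gene. Of the 61 members above the control level 16 (26.2%) were 2-fold or more apart, beside 20.5% of all named genes above that level. Of the 61, 9 were 2-fold or more higher in sample 1, beside 10.9% of all named genes above that level. Another 7 of the 61 were 2-fold or more higher in sample 2, beside 9.58% of those genes. The median difference was 0, as it was for all named genes above that level. The members' replicate SD was 0.64 on the log2 scale (root mean square over 61 genes, n = 2). The members furthest apart with both signals above the floor were Rab3a, Arf1, Sec23b, Arl14ep and Rab1a, higher in sample 1, and Rab11b, Stx5a, Rab31, Rab5c and Sec24c, higher in sample 2. Of the 37 coat, adaptor and translocation genes, the 32 above the control level had a median difference of -0.41, with 21 higher in sample 1 and 10 in sample 2, beside 46.9% and 43.3% of all named genes above that level. Within that list, the COPI genes were chosen after the values were seen. Of those above the control level 7 of 7 were higher in sample 1, beside 46.9% of all named genes above that level. Their median difference was -1.29. Averaged over a gene's probe sets, this median was -1.08, and with the offset of 32 in place of the floor -1.10.

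**Figure D5:**
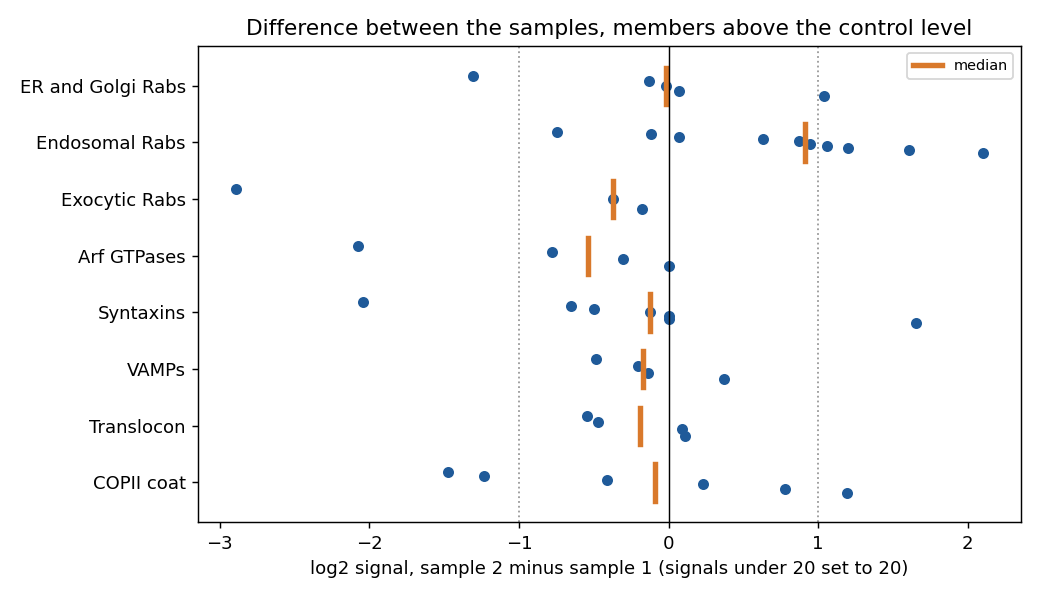
Points give, by role, the log2 signal of sample 2 minus that of sample 1 for members above the control level. The median is an orange bar, and dotted lines mark 2-fold. The roles drawn are ER and Golgi, endosomal and exocytic Rabs, Arf GTPases, syntaxins, VAMPs, translocon and COPII coat. Members of other roles are not drawn. The endosomal Rabs have a median of 0.91 with 8 of 10 points to the right of 0, and the COPII points lie on both sides.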

How the data were processed

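The deposited values were signal intensity per probe set on a linear scale, for 12488 probe sets in each of 2 samples, per the deposited table. Their mean was 53.9 in both samples; the summarising software: not given in the sources used here. Both arrays were quantile-normalised, and 66 control probe sets were then left out. For differences, signals under 20 were set to 20 before log2 (57.7% of values), and a fold against such a signal is a lower bound. Gene names came from the platform annotation; 10833 probe sets named 1 gene, 396 several and 1193 none. All 90 members had a gene ID in the RefSeq table of GRCm38.p6. On arrays, the number of samples limits the precision. With 1 group of 2 samples, no test was made and values are descriptions of these arrays. Members, classes and lists were chosen with earlier results of these data known. The text gives every SNARE, Arf, neuronal and tissue-restricted member, the other members above the stricter level, the 5 furthest apart in each direction, and 3 genes of a pathway list, picked by mean signal only to decide which to name; further members were named after their values were seen. The calculation of differences was tested on simulated data. Their noise was smaller than the spread between these arrays, and changes were planted only in strongly measured genes with 1 probe set. That test therefore does not cover weakly measured members or those with several probe sets. Alternatives were other scalings, control levels, probe set rules, floors and filters. Python 3.11.15, pandas 2.3.3 and numpy 2.4.6 were used.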

Additional observations from a re-analysis of the deposited data

Results flagged for a closer look

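A probe set left out of all counts, because it names Sec61g, the small gamma subunit of the translocon, together with several predicted genes, gave 183.65 in sample 1 and 72.75 in sample 2. Both values were above the bacterial control level and above the stricter level of their sample. Which of the named genes gave the signal was not tested.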

How the results depend on the processing

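With values as deposited, median-centred values, the highest bacterial probe set or the median of all probe sets as the control level, the counts of members and of ubiquitous members above that level stayed within 1.5 times the reported 61 and 47. At the stricter level from genes of other organs they were 26 and 21, beside 27.4% of all named genes, since that level is higher. From either sample alone they were 69 to 71 members and 52 ubiquitous members, beside 64.3% to 71.0% of all named genes. The neuronal count of 1 became 2 to 3. Where every probe set of a gene had to pass, the neuronal count was 0. The 16 of 61 members that were 2-fold or more apart became 10 of 48 when a gene's probe sets were averaged and all had to pass. With an offset of 32 they became 5 of 61. The shares of all named genes 2-fold or more apart under these settings were not calculated. Whether the drop is particular to the members therefore cannot be told. The cause of these changes was not tested. The median difference over members ranged from -0.21 without a floor to 0. Probe sets without an ID suffix, and members without genes matched by name alone, were alternatives chosen after seeing the data. They gave 56 of 85 and 52 of 78 members above the control level, beside 53.7% and 57.0% of all named genes. No paired analysis was possible because both samples belong to the same group. Signals near the bacterial control level limit what can be said of weakly measured members.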

Other observations

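Other genes of protein import into the ER, outside the members, were measured in both samples. Srp68, of the signal recognition particle, had 100 in sample 1 and 37.9 in sample 2, while Srp9, of the same particle, had 45.6 and 78.0. The translocon-associated genes Ssr2 and Ssr3 were higher in sample 1, with 137 and 47.8 for Ssr2 and 108 and 62.2 for Ssr3. Tram1, a partner of the Sec61 channel, had 30.9 and 76.0. The clathrin heavy chain gene Cltc had 103 and 74.8, and the COPII GTPase gene Sar1a had 121 and 102. These genes were chosen after their values were seen.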
